A study of Mus musculus with 6 samples.

Results

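The genes described here make, carry, store and export cholesterol. They were 31 genes chosen by symbol, of 26214 genes listed, and were set in 4 groups by role: 18 synthesis enzymes, 4 regulators of the transcription factor SREBP2, 4 genes of sterol trafficking and storage, and 5 genes of the oxysterol receptors LXR and sterol efflux. RNA was sequenced from mouse brown preadipocytes of an immortalized line that had been turned into brown adipocytes with insulin, triiodothyronine, methylisobutylxanthine, dexamethasone and indomethacin. On day 7 the cells received 100 nM rotenone, which blocks complex I of the respiratory chain, or DMSO for 16 h. There were 3 DMSO libraries, but the 3 rotenone files held the same count for every gene and were counted as 1 library, so the spread between replicates comes from DMSO alone. The labels call the replicates independent without naming separate cultures. The p-values thus set the distance of the rotenone library from the DMSO mean against the scatter of the DMSO libraries alone. That scatter may be technical. No genotype is given beyond the immortalized line, both groups share the differentiation mixture, and in bulk RNA fewer cells of a type and less RNA per cell cannot be told apart.

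Cholesterol is built from acetyl-CoA through mevalonate, farnesyl diphosphate, squalene and lanosterol. When sterols in the endoplasmic reticulum are scarce, SCAP escorts SREBP2 to the Golgi, where it is cleaved and released to switch on synthesis genes; when sterols are plentiful, INSIG proteins hold SCAP back. LXR receptors respond to oxysterols by switching on the exporters ABCA1 and ABCG1 and the ubiquitin ligase MYLIP, which marks lipoprotein receptors for degradation. In fat cells much of the free cholesterol lies in the plasma membrane and at the surface of lipid droplets.

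Synthesis genes changed in both directions with rotenone, while 4 of 5 LXR-side genes fell. Of the 18 synthesis enzymes 7 rose, 4 fell and 7 did not pass the threshold, an adjusted p of 0.05 in edgeR's quasi-likelihood test with Benjamini-Hochberg adjustment over 14709 genes. Over all genes tested, 27.6% were called higher and 28.5% lower, or 56.1% in either direction. Of the 31 genes, 11 were called higher and 10 lower (8 and 15 with library size scaling). With scaling by library size only, 5 synthesis enzymes were higher and 7 lower, and with upper quartile scaling 5 and 5. The median log2 fold change of the synthesis enzymes was 0.18, beside -0.04 over all genes tested. Library size scaling moved these medians to 0.06 and -0.16, and called 3245 of all genes higher and 5150 lower, against 4054 and 4197. Of the 5 LXR-side genes 0 rose and 4 fell, with a median of -1.17 and values from -1.56 to -0.20. A correction for transcript length and GC content took this median to -0.86. It took that of the synthesis enzymes to 0.12 and that of all genes to 0. All 31 genes passed the filter on low counts.

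Promoters show a sequence feature of the pathway that the choice of genes did not use. RefSeq promoter windows on GRCm38.p6, from 250 bases before to 50 bases after each start site, were at hand for 25 of the 31 genes. Sqle, Fdps, Fdft1, Npc1, Stard4 and Abcg1 had none and were not searched. Both strands were searched for CCAAT, the box bound by NF-Y, a factor that acts beside SREBPs at sterol genes; for TCACNCCAC, the core of a sterol regulatory element; and for the DR4 repeat bound by LXR with its partner RXR, in which 2 copies of the nuclear receptor site point the same way. The first letter of each copy and 1 inner letter of the first copy were left free, and the matched letters stand in capitals in the Abca1 promoter below. A gene counted where any of its windows held the letters, as for Dhcr7 in window 3 alone. The genes compared with were all those with a window, whether or not tested here. CCAAT was found in 14 of 15 synthesis genes, or 93.3%, and in 41.1% of 27025 genes with a window. Acat2 was the synthesis gene without it. It was also found in 3 of 4 regulators, in both trafficking genes with a window and in 1 of 4 LXR-side genes, Mylip, or 80% of all 25 genes. The sterol element core was found in Hmgcs1 alone among the 25 genes, and in 1.44% of all genes. Only the letters given were searched, so a gene without a match may still hold another form of the element. The LXR repeat was found in Abca1 alone of the 25, and in 0.226% of all genes. No match of one motif overlapped a match of another in these genes. These matches describe letters in the windows and not bound sites.

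The 150 bases before the RefSeq start site are shown for 5 genes that span the responses, each 5′ to 3′ on the strand of the gene. They are Hmgcs1 and Mvd, genes of the early pathway that moved in opposite directions, Sc5d of the last steps, and the LXR targets Abca1 and Mylip. Capitals mark matches of the 3 motifs on either strand, so that ATTGG is CCAAT read from the other strand. The intervals are chr13:119690201-119690350 on the plus strand for Hmgcs1, chr8:122443423-122443572 on the minus strand for Mvd, chr9:42264301-42264450 on the minus strand for Sc5d, chr4:53159896-53160045 on the minus strand for Abca1 and chr13:45389592-45389741 on the plus strand for Mylip.
Hmgcs1: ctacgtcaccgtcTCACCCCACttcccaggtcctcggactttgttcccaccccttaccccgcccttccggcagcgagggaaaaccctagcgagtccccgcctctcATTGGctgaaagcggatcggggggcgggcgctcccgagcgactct
Mvd: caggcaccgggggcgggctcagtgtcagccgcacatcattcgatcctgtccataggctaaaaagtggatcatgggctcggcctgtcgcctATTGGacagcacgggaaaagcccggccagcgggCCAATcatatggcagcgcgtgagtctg
Sc5d: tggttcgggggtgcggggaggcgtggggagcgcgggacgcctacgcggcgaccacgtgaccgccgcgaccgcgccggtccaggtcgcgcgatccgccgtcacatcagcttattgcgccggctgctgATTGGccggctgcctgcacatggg
Abca1: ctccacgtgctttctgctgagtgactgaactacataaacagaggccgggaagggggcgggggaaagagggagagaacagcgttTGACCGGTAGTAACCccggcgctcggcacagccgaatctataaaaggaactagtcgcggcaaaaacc
Mylip: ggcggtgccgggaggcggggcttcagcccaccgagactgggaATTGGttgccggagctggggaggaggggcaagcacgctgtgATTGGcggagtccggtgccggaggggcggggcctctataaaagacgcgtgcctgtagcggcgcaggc
In Abca1 the LXR repeat begins at base -67 from the start site, on the antisense strand. In Hmgcs1 the sterol element core begins at base -137.

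Total counts were 26085061 to 29194179 in DMSO and 21611589 with rotenone, and levels below are counts scaled to library size (CPM) with TMM factors. All 6 brown adipocyte markers were present in every library, but 0 rose and 4 fell, with a median log2 fold change of -0.39. Over all genes tested 27.6% were higher and 28.5% lower. Ucp1 fell by 1.86, Pparg by 0.65, Adipoq by 0.43 and Plin1 by 0.34, while Fabp4 and Cidea did not pass. When a coefficient of variation of 20% was assumed, only Ucp1 among these 6 markers kept its call. Their summed level, most of it Fabp4, was 8013 to 9024 CPM in DMSO and 7835 CPM with rotenone. Summed preadipocyte and fibroblast markers stood at 1002 to 1158 CPM in DMSO and 3005 CPM with rotenone. Nearly all of the rotenone sum was Col1a1 (2121 CPM) and Acta2 (852 CPM). These 2 of the 5 tested of 6 listed rose, and Pdgfra fell, from 18.5 to 20.7 CPM in DMSO to 9.06 CPM with rotenone. Col1a1, Acta2 and Pdgfra kept their calls with the assumed 20%. The part of these marker changes in the results on cholesterol genes was not tested. Of 6 macrophage markers Adgre1 and Ptprc had 0 counts in all libraries, and the summed level was 2.67 to 3.59 CPM in DMSO and 15.7 CPM with rotenone, nearly all of it Cd68. The 4 endothelial markers summed to 0.187 to 0.623 CPM in DMSO and 1.03 CPM with rotenone. Long transcripts were lower in general with rotenone, with a median log2 fold change of 0.24 in the shortest and -0.27 in the longest length decile of genes.

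**Figure D1:**
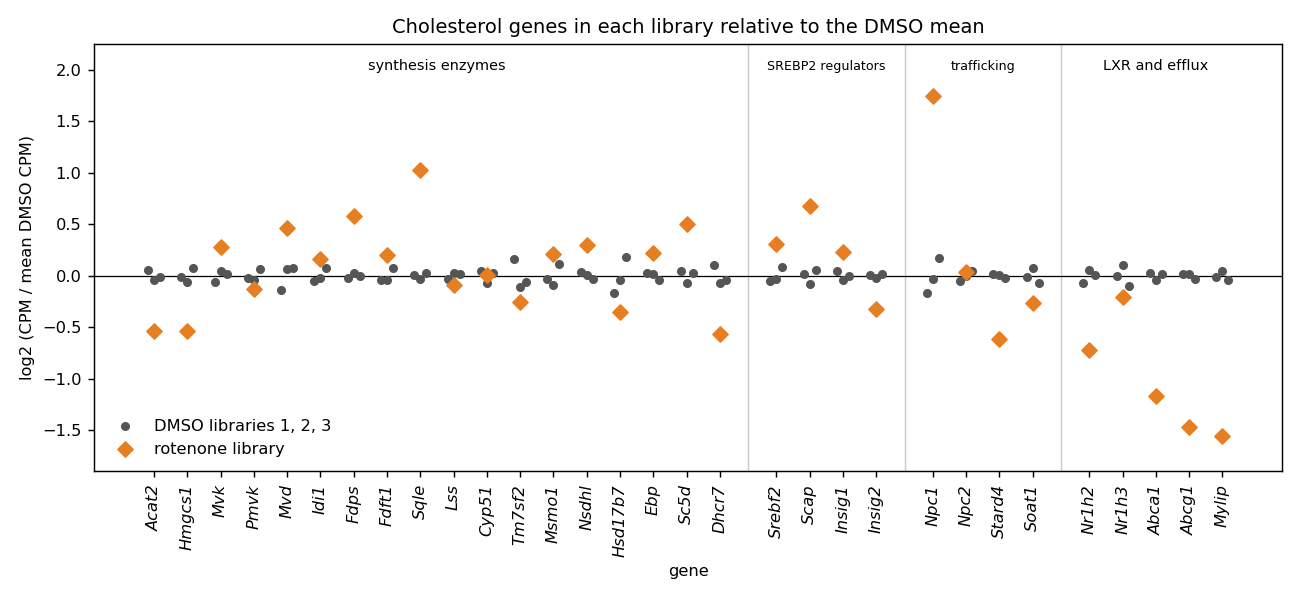
Each cholesterol gene (x axis, by role) is shown as log2 of its CPM over the mean DMSO CPM (y axis) for the 3 DMSO libraries (circles) and the rotenone library (diamonds). The rotenone library lies outside the DMSO range for 29 genes, with Npc1 highest and Mylip lowest; it lies inside for Cyp51 and Npc2, whose signs turn with the scaling.

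The rotenone library lay above all DMSO libraries for 14 of the 31 genes and below all for 15, against 41.5% and 44.7% of all genes tested, shares near that background. What follows gives the size and direction for each gene by stage.

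The route to farnesyl diphosphate held both lower and higher enzymes, as did the steps from lanosterol to cholesterol. Acat2, the cytosolic thiolase that joins acetyl-CoA units, stood at 271, 252 and 258 CPM in DMSO and 179 CPM with rotenone, and fell by 0.54 ± 0.07 (log2 fold change ± SE; adjusted p = 2.72e-06, edgeR). Hmgcs1, which makes HMG-CoA, stood at 290, 280 and 308 CPM in DMSO and 202 CPM with rotenone, and fell by 0.54 ± 0.07 (adjusted p = 3.9e-06, edgeR). For both, the rotenone library lay below every DMSO library. Further down, the decarboxylase gene Mvd stood at 37.9, 43.7 and 44.1 CPM in DMSO and 57.9 CPM with rotenone, a rise of 0.47 ± 0.10 (adjusted p = 0.000592, edgeR). Fdps, whose product makes farnesyl diphosphate, the branch point toward sterols, ubiquinone and protein prenylation, stood at 316, 328 and 320 CPM in DMSO. It was at 479 CPM with rotenone, above every DMSO library, a rise of 0.58 ± 0.06 (adjusted p = 2.36e-07, edgeR). The mevalonate kinase gene Mvk gave 0.28 ± 0.13, the phosphomevalonate kinase gene Pmvk -0.13 ± 0.07 and the isomerase gene Idi1 0.16 ± 0.07, none past the threshold. Pmvk was called lower with upper quartile and library size scaling (-0.17 and -0.25) and with the length and GC correction (-0.32). Idi1 was called higher without DMSO replicate 3 (0.20), with median-ratio scaling (0.18) and with the length and GC correction (0.18). At this stage 2 of 7 enzymes thus rose and 2 fell, beside 27.6% higher and 28.5% lower over all genes tested.

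The squalene steps held the largest rise among the synthesis enzymes. Sqle encodes squalene epoxidase, an oxygen-using and rate-limiting enzyme that makes the first oxygenated sterol precursor; the gene lies on chromosome 15, from 59315077 to 59331192 on GRCm38. It stood at 173, 168 and 175 CPM in DMSO and 349 CPM with rotenone, 2.03-fold higher. The 3 DMSO libraries lay close together and the rotenone library far above them, with a log2 fold change of 1.02 ± 0.06 (adjusted p = 1.09e-10, edgeR). Fdft1, squalene synthase, stood at 153, 153 and 166 CPM in DMSO and 180.0 CPM with rotenone, a rise of 0.20 ± 0.07 (adjusted p = 0.0245, edgeR). That call was lost without DMSO replicate 2 (0.18) and with upper quartile and library size scaling (0.15 and 0.08). Lss, which folds oxidosqualene into lanosterol, gave -0.09 ± 0.07, below the threshold; it was called lower with library size scaling (-0.21), and its sign turned to 0.15 after correction for transcript length and GC content.

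Between lanosterol and cholesterol 3 of 8 enzymes rose and 2 fell, beside 27.6% higher and 28.5% lower over all genes tested. Sc5d, the sterol C5 desaturase, stood at 180.2, 166 and 178 CPM in DMSO and 248 CPM with rotenone, a rise of 0.50 ± 0.07 (adjusted p = 4.26e-06, edgeR). Dhcr7, which acts on the product of that step, moved the other way, from 61.7, 54.6 and 55.5 CPM in DMSO to 38.7 CPM with rotenone, and fell by 0.57 ± 0.10 (adjusted p = 7.8e-05, edgeR). These neighbouring last steps therefore changed in opposite directions. Nsdhl, a C4 demethylation enzyme, stood at 79.1, 77.5 and 75.4 CPM in DMSO and 95.1 CPM with rotenone, and rose by 0.30 ± 0.07. The length and GC correction took Nsdhl to 0.09 and below the threshold. Msmo1, the C4 methyl oxidase, rose by 0.21 ± 0.08 (adjusted p = 0.0362, edgeR), a call lost without DMSO replicate 2 (0.17), with upper quartile and library size scaling (0.17 and 0.09), with limma-voom (adjusted p = 0.0541) and with DESeq2 (adjusted p = 0.0557). Hsd17b7, which works with Nsdhl in C4 demethylation, fell by 0.35 ± 0.12 (adjusted p = 0.0197, edgeR), a call lost without DMSO replicate 3 (-0.25) and with DESeq2 (adjusted p = 0.0521). The reductase gene Tm7sf2 and the isomerase gene Ebp gave -0.26 ± 0.16 and 0.22 ± 0.09, neither past the threshold. Tm7sf2 was called lower with library size scaling (-0.38). Ebp was called higher without DMSO replicate 1 (0.24) and with median-ratio scaling (0.24). Cyp51, the lanosterol demethylase, stood at 238, 219 and 235 CPM in DMSO and 232 CPM with rotenone, inside the DMSO range.

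**Figure D2:**
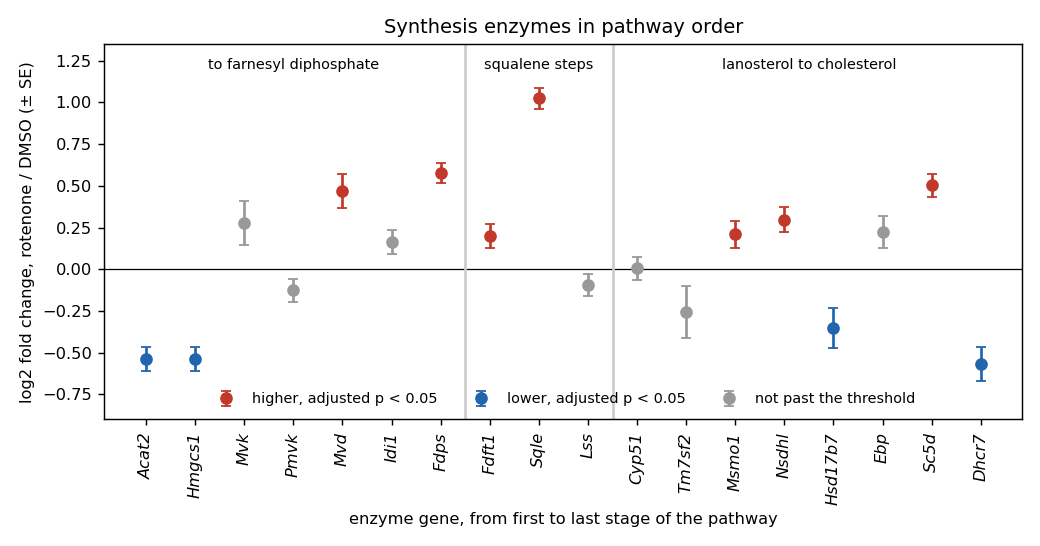
Log2 fold change of rotenone over DMSO with its standard error (y axis) for the 18 synthesis enzymes in pathway order (x axis), coloured by edgeR call. Acat2, Hmgcs1, Hsd17b7 and Dhcr7 lie below 0, Sqle stands at 1.02, and the sign of Cyp51 turns with the scaling and that of Lss with the length correction.

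The SREBP2 regulators changed by modest amounts, 3 higher and 1 lower, beside 27.6% higher and 28.5% lower over all genes tested. Scap, the sterol-sensing escort, stood at 75.9, 70.7 and 77.8 CPM in DMSO and 120 CPM with rotenone, a rise of 0.68 ± 0.08 (adjusted p = 3.67e-07, edgeR). Srebf2, the gene of SREBP2 itself, stood at 191, 194 and 210.1 CPM in DMSO and 246 CPM with rotenone, a rise of 0.31 ± 0.07 (adjusted p = 0.000967, edgeR). The INSIG paralogs moved apart. Insig1, itself a gene that SREBPs switch on, stood at 774, 731 and 751 CPM in DMSO and 880.2 CPM with rotenone, a rise of 0.23 ± 0.06 (adjusted p = 0.00466, edgeR). That call was lost with library size scaling (0.11) and with the length and GC correction (0.13). Insig2 stood at 70.1, 68.5 and 70.3 CPM in DMSO and 55.6 CPM with rotenone, and fell by 0.33 ± 0.08 (adjusted p = 0.00247, edgeR). For each of these 4 genes the rotenone library lay outside the DMSO range. Over all genes tested it lay above that range for 41.5% and below it for 44.7%.

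In sterol trafficking and storage, Npc1 rose and Stard4 fell, beside 27.6% higher and 28.5% lower over all genes tested. With upper quartile or library size scaling 1 gene was higher and 2 were lower. Over all genes, upper quartile scaling called 3755 higher and 4523 lower, and library size scaling 3245 and 5150. Npc1, the membrane protein through which cholesterol leaves lysosomes, stood at 101, 110.4 and 127 CPM in DMSO and 377 CPM with rotenone. This was 3.34-fold higher, with a log2 fold change of 1.74 ± 0.10 (adjusted p = 8.73e-08, edgeR), the largest change among the 31 genes. The value was 1.90 after correction for transcript length and GC content. Its soluble partner Npc2, which hands cholesterol to NPC1, stood at 1040, 1075 and 1111 CPM in DMSO and 1102 CPM with rotenone, inside the DMSO range; the log2 fold change was 0.04 ± 0.06 and turned to -0.08 with library size scaling. Stard4, a soluble sterol carrier and a gene that SREBP2 switches on, stood at 131, 130.2 and 128 CPM in DMSO and 84.5 CPM with rotenone. It fell by 0.62 ± 0.07 (adjusted p = 1.04e-06, edgeR), and lay below every DMSO library while Sqle lay above. Soat1, which esterifies cholesterol for storage, stood at 22.9, 24.3 and 22.0 CPM in DMSO and 19.2 CPM with rotenone, with a log2 fold change of -0.27 ± 0.13 that did not pass the threshold. Soat1 was called lower with upper quartile and library size scaling (-0.31 and -0.39).

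Among the 31 genes, Abca1, Abcg1 and Mylip had the largest falls. Abca1, which loads cholesterol onto lipid-poor apolipoproteins, stood at 186, 178 and 186 CPM in DMSO and 81.6 CPM with rotenone, 2.24-fold lower (log2 fold change -1.17 ± 0.08, adjusted p = 2.41e-10, edgeR). Abcg1, which exports sterols to high-density lipoprotein, stood at 65.7, 65.7 and 63.4 CPM in DMSO and 23.5 CPM with rotenone, 2.76-fold lower (-1.47 ± 0.10, adjusted p = 4.1e-10, edgeR). Mylip stood at 29.1, 30.3 and 28.5 CPM in DMSO and 9.95 CPM with rotenone, 2.95-fold lower (-1.56 ± 0.14, adjusted p = 1.65e-08, edgeR). In all 3 genes the DMSO libraries lay close together and the rotenone library stood far below them, at a share of their mean of 44.6% for Abca1, 36.2% for Abcg1 and 33.9% for Mylip. Abca1 and Abcg1 have long transcripts, in length deciles 10 and 9, and the length and GC correction took them to -0.86 and -1.23, both still past the threshold. Mylip lies in decile 5 and gave -1.65 with that correction.

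Of the 2 receptor genes, Nr1h2 fell and Nr1h3 did not pass the threshold. Nr1h2, which encodes the broadly expressed LXR beta, stood at 77.9, 85.3 and 82.5 CPM in DMSO and 49.8 CPM with rotenone, and fell by 0.72 ± 0.09 (adjusted p = 9.34e-07, edgeR). Nr1h3, which encodes LXR alpha, stood at 44.5, 47.9 and 41.7 CPM in DMSO and 38.9 CPM with rotenone, below every DMSO library, but its log2 fold change of -0.20 ± 0.10 did not pass the threshold. Nr1h3 was called lower without DMSO replicate 3 (-0.25), with library size scaling (-0.32) and with the length and GC correction (-0.36).

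**Figure D3:**
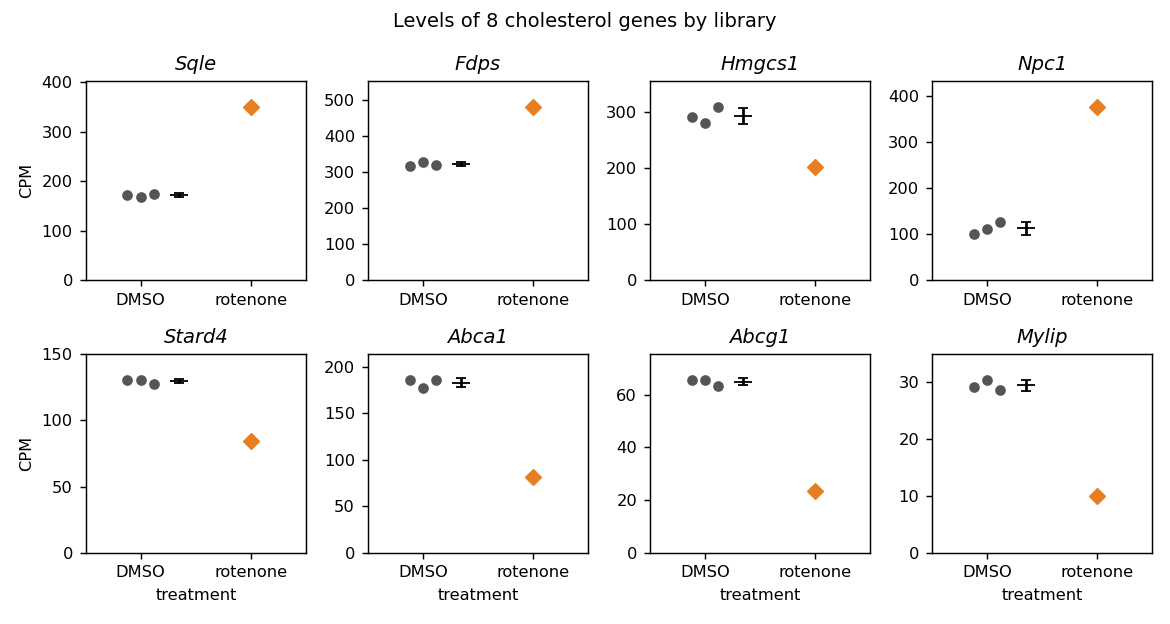
CPM (y axis, from 0) of 8 genes in the 3 DMSO libraries (circles, with their mean and SD beside them) and the rotenone library (diamond). Sqle, Fdps and Npc1 are above all DMSO libraries, and Hmgcs1, Stard4, Abca1, Abcg1 and Mylip are below.

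These calls assume that the single rotenone library varies as little as the DMSO libraries, whose biological coefficient of variation was 6.9%. When a coefficient of variation of 20% was assumed for all genes, 5 of the 21 calls remained: Sqle and Npc1 higher (adjusted p = 0.00934 and 9.72e-07, likelihood ratio test in edgeR), and Abca1, Abcg1 and Mylip lower (adjusted p = 0.00908, 0.00102 and 0.000598, likelihood ratio test in edgeR). In that setting 9.57% of all genes were higher and 14% lower. The other synthesis enzymes, all 4 SREBP2 regulators, Stard4 and Nr1h2 did not pass.

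Other genes of the pathway were read from lists that hold none of the 31 genes. When a coefficient of variation of 20% was assumed, the calls of Erlin1, Erlin2, Srd5a3, Lipa, Stard5, Osbpl10, Gramd1c and Tmem97 remained. Those of Arl4c, Abcg4, Ch25h, Hsd3b7 and Sult2b1 remained too. The other calls in these lists were lost, with every call among the lipoprotein receptors and LXR partners. Calls given below are without that assumption, and stand beside 27.6% higher and 28.5% lower over all genes tested. Of 13 genes for SREBP transport and cleavage and for sterol-regulated degradation, 3 rose and 3 fell, with a median of 0.08 (-0.04 with library size scaling, 3 higher and 5 lower; 5 and 3 with median-ratio scaling). The ERLIN paralogs, whose products form an endoplasmic reticulum complex that binds cholesterol, moved apart. Erlin1 went from 78.5, 79.2 and 83.7 CPM in DMSO to 168 CPM with rotenone and rose by 1.06 ± 0.07. Erlin2 went from 98.0, 90.6 and 92.4 CPM to 44.0 CPM and fell by 1.09 ± 0.09. Aup1, a degradation factor of the same membrane, rose by 0.65 ± 0.07. Mbtps1 and Mbtps2, the proteases that cleave SREBPs, gave 0.18 ± 0.08 and 0.20 ± 0.14, neither past the threshold.

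The isoprenoid branch uses farnesyl diphosphate for dolichol, ubiquinone and prenylated proteins. Of 14 of its genes 4 rose and 2 fell, beside 27.6% and 28.5% of all genes tested, with a median of 0.13. Library size scaling gave 4 and 5 with a median of 0.01, and median-ratio scaling gave 4 and 1. Srd5a3 and Nus1, which act in dolichol synthesis, rose by 0.83 ± 0.12 and 0.51 ± 0.08. Rabggtb, a subunit of the transferase that prenylates Rab proteins, rose by 0.69 ± 0.07, and Fnta, the subunit shared by farnesyl and geranylgeranyl transferases, fell by 0.62 ± 0.09.

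Of 19 sterol transfer genes 7 rose and 6 fell, beside 27.6% and 28.5% of all genes tested, with a median of -0.04. Library size scaling gave 5 and 8 with a median of -0.16, and the length and GC correction turned the median to 0.11. Lipa, the lysosomal lipase that frees cholesterol from its esters just upstream of NPC2 and NPC1, stood at 347, 292 and 310 CPM in DMSO and 129 CPM with rotenone, and fell by 1.29 ± 0.09 (adjusted p = 1.69e-09, edgeR). It lay below every DMSO library, while Npc1 lay above. Stard5 rose by 1.14 ± 0.09. Gramd1c and Osbpl10 fell by 1.61 ± 0.47 and 1.48 ± 0.44 from 2.42 ± 0.52 and 2.48 ± 0.22 CPM (SD, n = 3), with the call for Gramd1c lost in limma-voom (adjusted p = 0.0505). Tmem97, a sterol-responsive partner of NPC1, rose by 0.97 ± 0.09 and was not among the 4 largest changes of the list; it and the GRAMD1 pair were named after their values were seen. Gramd1a and Gramd1b, which encode transfer proteins that take plasma membrane cholesterol to the endoplasmic reticulum, gave 0.63 ± 0.08 and -0.55 ± 0.07, both past the threshold.

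Of 7 lipoprotein receptor genes 1 rose and 3 fell, with a median of -0.02 (0 and 3 with library size or upper quartile scaling). Sort1, a sorting receptor, fell by 0.49 ± 0.07, Vldlr by 0.47 ± 0.08 and Scarb1, a receptor for high-density lipoprotein, by 0.23 ± 0.07. Lrp1 rose by 0.19 ± 0.07, a call lost with both of those scalings and without DMSO replicate 2; its value was 0.71 with the length and GC correction. The list median was -0.16 without DMSO replicate 2 and -0.10 without DMSO replicate 1.

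Of 6 partners, which are retinoid X receptors and coregulators, 0 rose and 2 fell, with a median of -0.06: Rxra and Ncor1 fell by 0.35 ± 0.09 and 0.35 ± 0.07, and Ncor1 did not pass after the length and GC correction. That correction gave 1 higher and 1 lower partner and turned the median to 0.03. Of 7 other LXR target genes 3 rose and 3 fell, with a median of 0.17 (2 and 3 with library size or upper quartile scaling). Abcg4, a transporter related to Abcg1, fell by 3.24 ± 0.70, on 61, 67 and 35 counts in DMSO and 4 with rotenone. Srebf1, which encodes the lipogenic SREBP1, stood at 801, 782 and 757 CPM in DMSO and 498 CPM with rotenone, and fell by 0.65 ± 0.07. Lpcat3, a phospholipid remodelling enzyme, went the other way from 258, 241 and 249 CPM to 328 CPM and rose by 0.40 ± 0.07, and Arl4c rose by 1.28 ± 0.30 from 2.33 ± 0.53 CPM (SD, n = 3). Of the 6 tested of 8 genes of oxysterol and bile acid synthesis, 1 rose and 3 fell, with a median of -0.37. That median was -0.02 with no filter or with a mean count of at least 50, settings that change which genes are tested, and 1 gene was lower without DMSO replicate 3, with limma-voom or with DESeq2. Hsd3b7, an enzyme of bile acid synthesis, went from 144, 133 and 139 CPM in DMSO to 59.2 CPM with rotenone and fell by 1.23 ± 0.08. Ch25h, which makes the LXR ligand 25-hydroxycholesterol, stood at 3.91 to 4.02 CPM in DMSO and 7.49 CPM with rotenone, and rose by 0.91 ± 0.23. Cyp46a1, a brain-type cholesterol hydroxylase, fell by 0.72 ± 0.26, a call lost without DMSO replicate 3, with limma-voom and with DESeq2. Sult2b1, a sterol sulfotransferase, had 28, 15 and 29 counts in DMSO and 3 with rotenone; its call was lost without DMSO replicate 1 or 3, with limma-voom and with DESeq2.

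**Figure D4:**
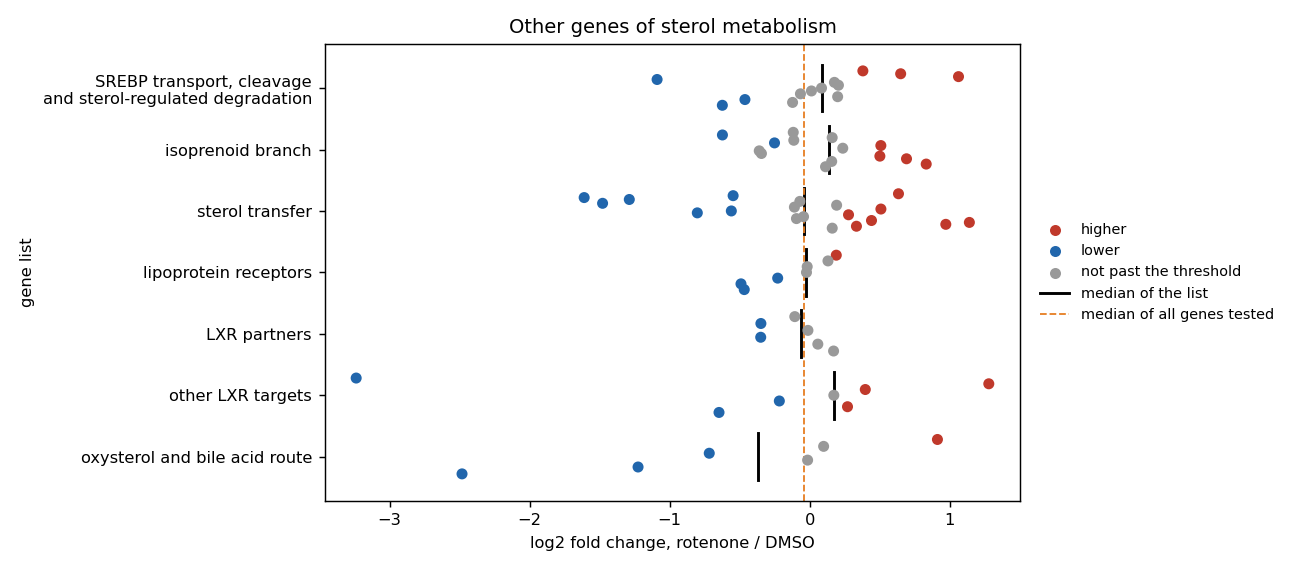
Log2 fold change of rotenone over DMSO (x axis) for each tested gene of 7 further lists (y axis), coloured by edgeR call, with the list median (black bar) and the median of all genes tested (dashed line, -0.04). Each list except the LXR partners holds calls in both directions, and the partners do so after the length and GC correction; with library size or upper quartile scaling the lipoprotein receptors hold none that are higher, and the median of the top list turns to -0.04 with library size scaling.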

How the data were processed

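The authors deposited raw counts of reads per gene symbol. TopHat2 and mm10 are named per the submitters' processing notes; the counting program, annotation and use of strand are not given in the sources at hand, so overlapping genes may share reads. Counts were scaled by TMM and filtered with filterByExpr (edgeR 4.0.16, R 4.3.3), which left 14709 genes. A robust quasi-likelihood fit compared the single rotenone library with 3 DMSO libraries on 2 residual degrees of freedom. The SE is the fold change over the square root of F. Scripts were tested on simulated data. Transcript length and GC content came from the longest GENCODE M21 transcript, in 8 by 8 bins.

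Genes, lists and tests were chosen with earlier results of these data known. Named were all 31 genes and in each other list up to 4 genes past the threshold with the largest changes; Mbtps1, Mbtps2, Tmem97, Gramd1a and Gramd1b were added after their values were seen. Alternatives included limma 3.58.1 and DESeq2 1.42.0. Some genes of the pathway are not reported here.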

Additional observations from a re-analysis of the deposited data

How the results depend on the processing

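Of the 21 calls among the 31 genes, 16 held under all of the 15 alternatives other than the assumed coefficient of variation of 20%. With that value 1408 of all genes were higher and 2063 lower, 2 and 3 of the 31 genes, 1 and 0 of the synthesis enzymes, 0 and 0 of the regulators, and 0 of the trafficking genes lower. Lower synthesis enzymes numbered 7 with library size scaling and 7 with all 6 files as independent libraries. Over all genes, 5150 and 5726 were lower in these settings, against 4197 in the main fit. Lower trafficking genes numbered 2 with upper quartile scaling, 2 with library size scaling and 2 with 6 independent files. Signs turned for Cyp51 (-0.037 with upper quartile and -0.114 with library size scaling, -0.0013 with a mean count of at least 50, -0.0067 with 6 files, and -0.0281 to 0.0362 when single DMSO libraries were left out), Npc2 (-0.0073 and -0.0846 with the same scalings), Lss (0.15) and the trafficking median (0.0059), the last pair with the length and GC correction. The cause was not tested. Without single DMSO libraries, 5 to 8 synthesis enzymes were higher and 3 to 4 lower, and 4 to 5 LXR-side genes were lower. No paired analysis was possible because the 3 rotenone files are 1 library.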
